A study of Mus musculus with 8 samples.

Results

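The genes described here make, break down and recycle glutathione, or carry sulfur from methionine to cysteine for it: Chac1, Ggct and Oplah, Gclc, Gclm and Gss, Cth and Cbs, and Gsr. All probes that the array's annotation gives to these 9 genes, by symbol or synonym, were taken, which found 15 probes for 8 of the genes among 25697 probes and 16593 named genes, and no named probe for Gsr. A probe counted as detected on an array where its detection p was under 0.05, and 9 probes of 5 genes were detected on at least 4 of the 8 arrays and were tested. The other 6 probes, of Cth, Cbs and Gclc and 1 of the 4 of Ggct, were not.

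The arrays compared hearts of 4 mice carrying a transgenic, doxycycline-inducible short hairpin RNA against Taz with hearts of 4 wild-type littermates. Taz encodes tafazzin, the mitochondrial transacylase that remodels cardiolipin and that is mutated in Barth syndrome, an inherited cardiomyopathy with muscle weakness. Both groups were C57BL/6J mice, 2 months old, and both were fed doxycycline in the diet at 625 mg/kg, so the drug was common to both and the transgene was not. The promoter of the hairpin, the tissues and cell types it reaches, the number of founder lines and the sex of the mice are not stated in the labels.

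Glutathione is a tripeptide of glutamate, cysteine and glycine, and the main small thiol of the cell. Glutamate-cysteine ligase, made of the catalytic subunit Gclc and the modifier subunit Gclm, joins glutamate to cysteine, and glutathione synthetase, Gss, adds glycine. Cysteine can come from methionine through transsulfuration by Cbs and Cth. Chac1 cleaves glutathione in the cytosol to cysteinylglycine and pyroglutamate, Ggct forms pyroglutamate from other gamma-glutamyl compounds, Oplah returns pyroglutamate to glutamate, and Gsr reduces oxidised glutathione. In heart mitochondria glutathione serves the peroxidases that remove hydrogen peroxide.

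Depth, as far as an array shows it, was alike in both groups: 9027 to 10183 probes were detected in Taz knockdown hearts and 8935 to 9601 in wild-type hearts. The Taz probe ILMN_2978525 had a signal of 62.7 ± 7.73 in Taz knockdown hearts and 543 ± 69.3 in wild-type hearts (SD, n = 4 each), a log2 difference of -2.88 ± 0.12 (SE; limma adjusted p = 1.11e-07), and the second Taz probe was lower too. Of 7 cardiomyocyte markers on the array 6 were detected, with summed signals of 54589 to 72927 in Taz knockdown hearts and 55899 to 68280 in wild-type hearts, while 0 of 5 liver and 0 of 4 kidney markers were detected. All 5 atrial markers were detected, with summed signals of 28164 to 40903 in Taz knockdown hearts and 31158 to 66788 in wild-type hearts and a median log2 difference of -0.71, and 0 of them passed the test. The 3 detected erythroid markers had a median log2 difference of 0.59, with summed signals of 38438 to 55682 in Taz knockdown hearts and 37004 to 47646 in wild-type hearts, and 0 passed. The 2 detected adipocyte markers of 4 had a median of -0.39, with list sums of 30.5 to 69.3 in Taz knockdown hearts and 29.2 to 405 in wild-type hearts, and 0 passed. The 1 detected leukocyte marker of 3, Lyz2, was lower in Taz knockdown hearts (-0.48, limma adjusted p = 0.0450). The part of these marker sets in the results below was not tested. In whole-heart RNA, fewer cells of a type and less RNA per cell cannot be told apart.

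Promoter stretches are shown for the 3 glutathione genes that passed the test, since each window holds a short motif of a stress-response factor. They come from RefSeq windows on GRCm38.p6 that run from 250 bases before to 50 bases after each gene's start, and 5 of the 9 genes have such a window (Chac1, Cbs, Gclm, Gss and Ggct). Only bases upstream of the outermost annotated start are printed, on the gene's strand. Capitals mark TGATGNAA, the C/EBP-ATF response element through which ATF4 and C/EBP factors act, in Chac1, and TGACNNNGC, the core of the antioxidant response element bound by NRF2, in Gclm and Ggct. Each stands in these stretches as the reverse complement.
Chac1 (chr2:119350992-119351241, plus strand): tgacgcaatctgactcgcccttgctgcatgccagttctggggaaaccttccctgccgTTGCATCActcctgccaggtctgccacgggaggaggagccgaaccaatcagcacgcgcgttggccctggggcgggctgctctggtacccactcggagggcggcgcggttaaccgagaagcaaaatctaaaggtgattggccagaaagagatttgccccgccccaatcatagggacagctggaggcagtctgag
Gclm (chr3:122245307-122245486, plus strand): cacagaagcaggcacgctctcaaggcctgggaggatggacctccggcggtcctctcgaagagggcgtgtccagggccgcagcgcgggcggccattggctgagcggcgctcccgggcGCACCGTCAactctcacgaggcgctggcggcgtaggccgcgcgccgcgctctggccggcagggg
Ggct (chr6:54992961-54993117, minus strand): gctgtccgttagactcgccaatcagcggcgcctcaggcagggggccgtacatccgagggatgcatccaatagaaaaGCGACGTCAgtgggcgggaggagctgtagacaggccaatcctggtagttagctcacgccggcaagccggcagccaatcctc
Counted from the start, the C/EBP-ATF motif of Chac1 spans bases 193 to 186 before it, and the antioxidant motif spans bases 134 to 126 before it in Gclm and 174 to 166 before it in Ggct. A second antioxidant match in Ggct lies 6 to 14 bases after the start. The Gss and Cbs windows hold neither run of letters. Searched on both strands over all 32851 windows, the first motif occurs in 3.97% and the second in 12.4%. A match describes letters in a window only.

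Of the 9 tested probes, 2 were higher in Taz knockdown hearts (Chac1 and Gclm), 1 was lower (a Ggct probe) and 6 did not pass at an adjusted p of 0.05. Gclm was detected in Taz knockdown hearts alone, and this way into the test favoured a difference, so its call lends the count no support. Across all 9397 tested probes, 3.42% were higher and 3.16% were lower. The normalized values of Taz knockdown and wild-type hearts did not overlap for 5 of the 9 probes, against 14.6% of all tested probes. Gclm is among the 5, and its way into the test made this likely in advance. Ggct probes ILMN_2623886 and ILMN_2694767, of 1 gene, are also among them. Chac1 stood far from the other members in size, and the remaining differences were all under 1 on the log2 scale. The comparison used limma over all tested probes with Benjamini-Hochberg adjustment, and the deposited signals quoted below are background-subtracted intensities before normalization, which set no level of a probe against another probe's.

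**Figure D1:**
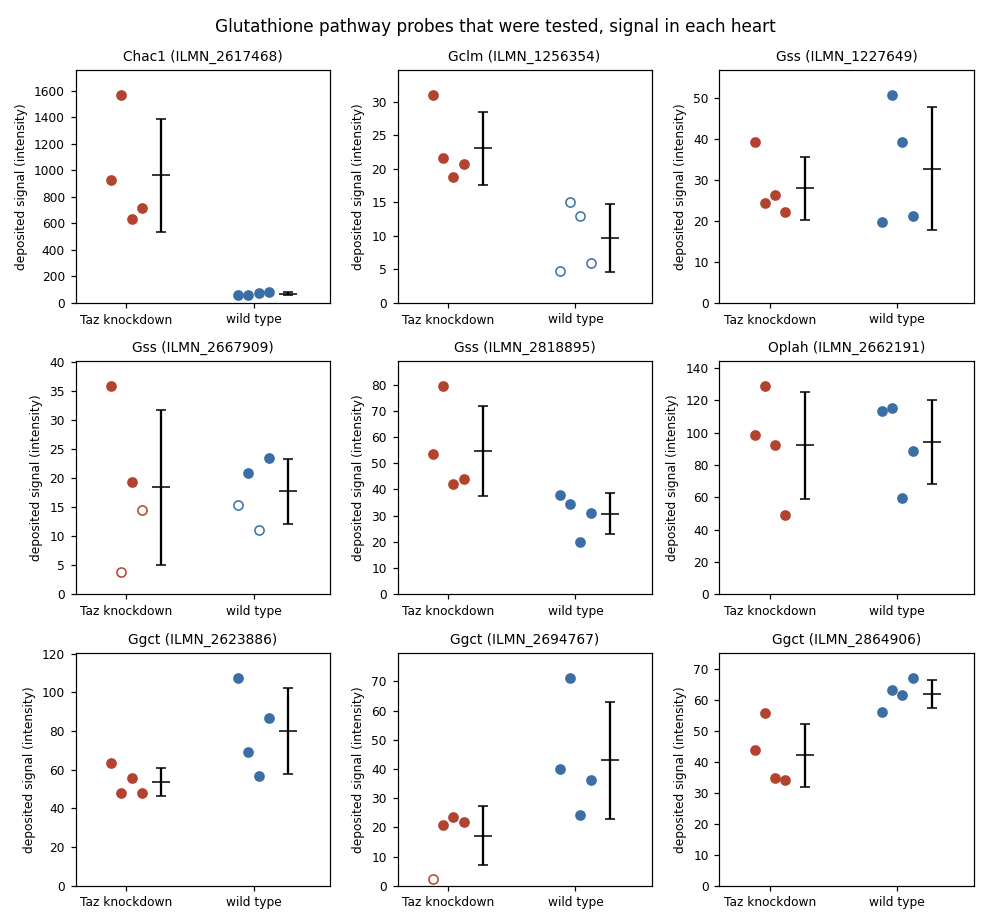
Deposited signal (intensity, linear axis from 0, scaled per panel) of the 9 tested glutathione probes in 4 Taz knockdown hearts (red, left) and 4 wild-type hearts (blue, right). Points are hearts, open where the detection p was 0.05 or more, and the bars beside them are the mean ± SD. The Chac1 signals of Taz knockdown hearts lie between 630 and 1570, and those of wild-type hearts between 56.9 and 81.3.

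Chac1, the gamma-glutamylcyclotransferase that breaks down glutathione, gave signals of 930, 1570, 630 and 715 in Taz knockdown hearts, against 59.5, 56.9, 71.4 and 81.3 in wild-type hearts. Every Taz knockdown heart was far above every wild-type heart, and the probe was detected on all 8 arrays. Mean signals were 961 ± 425 in Taz knockdown hearts and 67.3 ± 11.3 in wild-type hearts (SD, n = 4 each). The log2 difference was 3.43 ± 0.24 (SE; 95% interval 2.91 to 3.96), a 10.8-fold rise (7.49 to 15.5) with a limma adjusted p of 8.85e-06. By p it ranked 16 among the 9397 tested probes, and by size it ranked 6. The exact two-sided permutation p over the 8 hearts was 0.0286, the smallest that 4 against 4 allows. The signals spread more among Taz knockdown hearts: heart 2 lay highest at 1570 and heart 3 lowest at 630, while wild-type hearts spanned 56.9 to 81.3.

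Within each heart the Chac1 log2 value was set against each of the other 8 tested probes of these genes, as a description, since Chac1 was already known to stand apart. The gap between Chac1 and the other probe was wider in Taz knockdown hearts than in wild-type hearts by 2.85 (Gss ILMN_2818895) to 4.08 (Ggct ILMN_2694767) on the log2 scale, with no overlap between groups for any of the 8. For Gclm the wild-type values lie below detection, so its gap is not an exact value.

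**Figure D2:**
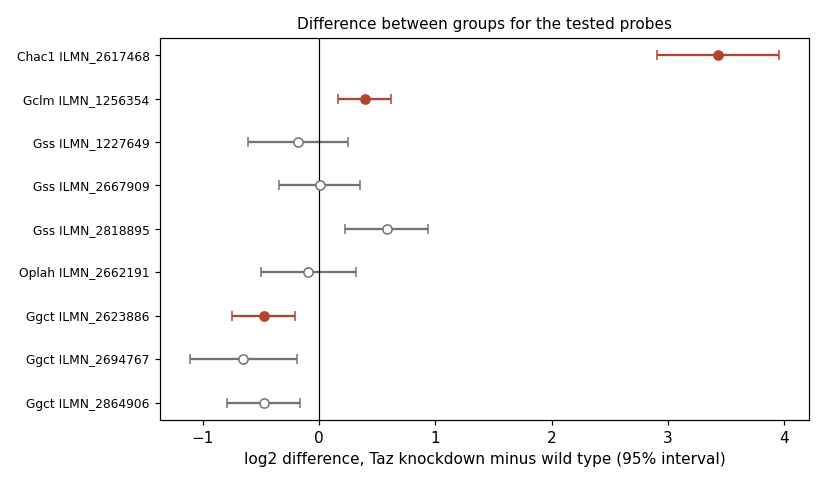
Log2 difference, Taz knockdown minus wild type, with its 95% interval for the 9 tested probes. Red filled points passed an adjusted p of 0.05 in limma and open points did not. Chac1 stands at 3.43, and the other probes lie between -0.65 and 0.58.

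The synthesis enzymes gave weak signals. Gclm, the modifier subunit of glutamate-cysteine ligase, gave 31.0, 21.7, 18.8 and 20.7 in Taz knockdown hearts, against 4.71, 15.01, 12.9 and 5.98 in wild-type hearts. The probe was detected in all 4 Taz knockdown hearts and in 0 of the 4 wild-type hearts, so it entered the test through the Taz knockdown hearts alone. Its log2 difference of 0.39 ± 0.10 (SE; 0.16 to 0.62) had a limma adjusted p of 0.0485. Since wild-type hearts give only a bound, the rise is at least 1.08-fold: the Taz knockdown mean against, per wild-type array, the larger of the probe's own value and the dimmest detected signal. With undetected values raised to that dimmest detected signal, the log2 difference was 0.11 and the limma adjusted p 0.549. The call was lost whichever of the 8 hearts was left out, with log2 differences of 0.34 to 0.44 and limma adjusted p of 0.0603 to 0.132. It held with the deposited normalized table (0.61, limma adjusted p = 0.0321) and without background correction (0.60, limma adjusted p = 0.0324), where the difference was larger. Both settings use quantile-normalized intensities without the background correction of the main fit, so they are not separate checks.

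Gclc, the catalytic subunit, was detected on 0 of the 8 arrays by its 1 probe. Its signals were 7.89, 2.89, -4.18 and 12.6 in Taz knockdown hearts, against 12.9, -3.57, -1.52 and 16.2 in wild-type hearts. Both groups scattered around the array background and overlapped throughout, so the array did not measure whether the catalytic subunit moved with Gclm.

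Gss, which adds glycine in the last step, has 3 probes that disagreed. Probe ILMN_2818895 gave 53.6, 79.4, 41.9 and 44.0 in Taz knockdown hearts, against 37.8, 34.3, 20.02 and 31.0 in wild-type hearts. The groups did not overlap, and the log2 difference of 0.58 ± 0.16 (SE; 0.23 to 0.93) missed the threshold with a limma adjusted p of 0.0570. Probe ILMN_1227649 gave 39.2, 24.3, 26.2 and 22.1 in Taz knockdown hearts, against 19.7, 50.8, 39.3 and 21.1 in wild-type hearts, with a log2 difference of -0.18 (-0.61 to 0.25). Probe ILMN_2667909, detected in 2 hearts of each group, differed by 0.0049 (-0.34 to 0.35). The groups overlapped by both of these probes. The gap between the first Gss probe and each of the others was 0.76 (exact permutation p = 0.143) and 0.58 (exact permutation p = 0.0857) wider in Taz knockdown hearts, a comparison chosen after seeing the data, and neither passed. Averaged over its probes, Gss differed by 0.14 (limma adjusted p = 0.483). The first probe passed under 3 alternatives, a larger offset, a variance prior that follows intensity and raised undetected values, with limma adjusted p of 0.0446 to 0.0459.

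Ggct, a cytosolic gamma-glutamylcyclotransferase, was lower in Taz knockdown hearts by 1 of its 3 tested probes, and the other 2 lay the same way without passing. Probe ILMN_2623886 gave 63.3, 48.1, 55.6 and 47.8 in Taz knockdown hearts, against 108, 69.0, 56.6 and 86.8 in wild-type hearts. As deposited, wild-type heart 3 lay among the Taz knockdown hearts, and after normalization the groups did not overlap. The log2 difference was -0.48 ± 0.12 (SE; -0.75 to -0.20), which is 1.39-fold higher in wild type (1.15 to 1.68), with a limma adjusted p of 0.0452. This call was lost under several alternatives: with any 1 of 7 hearts left out the limma adjusted p was 0.0608 to 0.118.

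Ggct probe ILMN_2694767 gave 2.32, 20.9, 23.6 and 22.0 in Taz knockdown hearts, against 40.1, 71.3, 24.2 and 36.4 in wild-type hearts. The groups did not overlap, the probe was undetected in Taz knockdown heart 1, and the log2 difference was -0.65 (-1.11 to -0.19; limma adjusted p = 0.0947), or -0.56 with that value raised to the dimmest detected signal of its array. Ggct probe ILMN_2864906 gave 43.8, 55.9, 34.8 and 34.0 in Taz knockdown hearts, against 56.1, 63.1, 61.6 and 67.2 in wild-type hearts. As deposited these signals did not overlap, but the normalized values did, and the log2 difference was -0.48 (-0.79 to -0.17; limma adjusted p = 0.0724). The 3 probes' log2 differences between groups lay within -0.17 to 0.18 of each other, with exact permutation p of 0.629 to 1. Averaged over these probes within each heart, Ggct differed by -0.54 ± 0.10 (SE; limma adjusted p = 0.0108). The fourth Ggct probe, ILMN_2766493, was detected on 0 arrays.

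Oplah, which returns pyroglutamate to glutamate, was detected on all 8 arrays. Its signals were 98.3, 129, 92.4 and 49.0 in Taz knockdown hearts, against 113, 115, 59.5 and 88.4 in wild-type hearts. The groups overlapped, and the log2 difference of -0.09 ± 0.19 (SE; limma adjusted p = 0.833) had an interval of -0.50 to 0.32, which leaves out changes as large as that of Chac1. The sign turned to 0.059 without Taz knockdown heart 4, the lowest.

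The transsulfuration enzymes were not measured above background. Cth, which releases cysteine from cystathionine, has probes ILMN_2662719 and ILMN_2733193, and Cbs, which forms cystathionine, has probes ILMN_1230318 and ILMN_2701582. All 4 were detected on 0 of the 8 arrays. The Cth probe ILMN_2662719 gave 10.8, 9.78, -6.95 and 13.1 in Taz knockdown hearts, against -0.53, 14.97, 3.96 and -17.0 in wild-type hearts. The Cbs probe ILMN_2701582 lay below 0 throughout, at -13.1 to -9.00 in Taz knockdown hearts and -11.7 to -7.60 in wild-type hearts. Over all 6 untested probes, 0 of 48 measurements were detected and signals ran from -17.0 to 16.2. When these probes were tested without the detection filter, log2 differences were -0.08 to 0.12 and the lowest unadjusted limma p was 0.358. A difference in Cth, Cbs or Gclc was not detectable at the signal these probes gave.

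**Figure D3:**
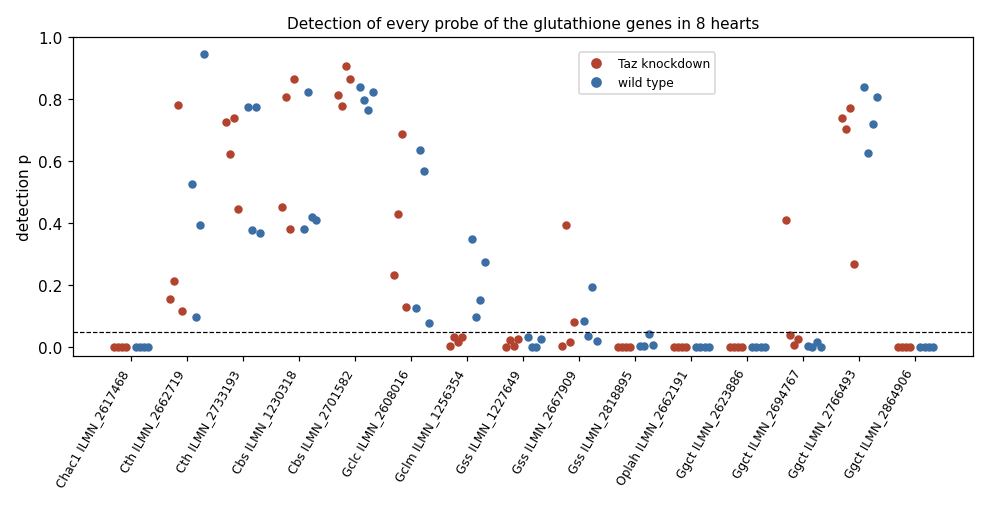
Detection p (linear axis) of all 15 glutathione probes in 4 Taz knockdown hearts (red) and 4 wild-type hearts (blue), with the dashed line at 0.05. Points below the line are detected: Chac1, Oplah and 2 Ggct probes lie at the bottom on all 8 arrays, Gclm crosses the line between the groups, and the Cth, Cbs and Gclc probes stay above it.

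The probes nearest to Chac1 across the 8 hearts were found by the root mean square distance of log2 values, each centred on its wild-type mean. They were Asns, asparagine synthetase (distance 0.30), Mthfd2, a mitochondrial folate enzyme (0.32), and Fgf21, a secreted stress hormone (0.37). These Asns and Mthfd2 probes were detected in all 4 Taz knockdown hearts and 0 wild-type hearts, so only bounds apply: Asns was at least 7.18-fold higher in Taz knockdown hearts, and Mthfd2 at least 7.68-fold. Fgf21 was detected in 1 of 4 wild-type hearts, with a log2 difference of 3.14. The wild-type side of these distances thus lies largely below detection. The windows of Asns and Fgf21 hold the C/EBP-ATF motif as well, shown here in capitals in short stretches upstream of the start to set beside that of Chac1. In Asns it reads forward, 23 to 16 bases before the start, and in Fgf21 it is the reverse complement, 139 to 132 bases before it. The Mthfd2 window holds no match.
Asns (chr6:7693210-7693252, minus strand): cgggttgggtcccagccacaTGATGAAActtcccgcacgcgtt
Fgf21 (chr7:45615602-45615649, minus strand): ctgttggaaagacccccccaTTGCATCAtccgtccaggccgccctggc
The Asns window also has an antioxidant core match 172 to 164 bases before the start. By the same measure, Gclm lay nearest to Stx8, Ddx39b and Serpinb6a (0.04 to 0.07), and Ggct probe ILMN_2623886 to Gadd45g, Casp4 and Smap2 (0.08 to 0.11). Small distances are easy to reach where the difference itself is small.

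Lists of 153 further genes around the pathway were tested in the same fit, and 99 had a tested probe. Each gene was read by 1 probe, that with the highest mean log2 value over all hearts. Of the 99 tested genes, 23 were higher in Taz knockdown hearts and 7 lower, with a median log2 difference of 0.04, against -0.0094 over all tested probes. Across all tested probes 3.42% were higher and 3.16% lower. Pemt, Slc1a4, Hmox1, Asns and Mthfd2 were detected in Taz knockdown hearts alone and entered the test through them. Their calls therefore lend the list counts below no support. The glutathione cycle and NADPH list had 6 tested genes of 16, and 0 passed in limma. At an unadjusted p under 0.05 there was 1, Idh1, the cytosolic NADPH-forming isocitrate dehydrogenase (-0.37, limma adjusted p = 0.0712). Chac2, the close relative of Chac1, differed by -0.0049 (-0.45 to 0.44; limma adjusted p = 0.993). Its probe was detected in only 3 Taz knockdown and 2 wild-type hearts, with signals of 0.92 to 34.2. The offset draws folds of such a dim probe toward 1, so the interval does not show that Chac2 was unchanged. Nnt, the transhydrogenase that makes mitochondrial NADPH, was detected on 0 arrays by its 3 probes.

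In the methionine cycle list 1 of 8 tested genes was higher, Pemt, a phosphatidylethanolamine methyltransferase, which was detected in 4 Taz knockdown hearts and 0 wild-type hearts (at least 1.32-fold), and 0 were lower. In the list of cysteine and sulfide use 1 of 13 was higher, Got1, the cytosolic aspartate aminotransferase (0.60, limma adjusted p = 0.0232), and 0 were lower, with a list median of -0.20.

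Among substrate transporters 3 of 8 tested genes were higher and 1 was lower. Slc6a9, a glycine transporter detected in 4 Taz knockdown and 3 wild-type hearts, was higher by 1.95 (limma adjusted p = 8.85e-06). Slc1a4, a neutral amino acid transporter, was at least 2.08-fold higher, with detection in 4 Taz knockdown hearts and 0 wild-type hearts. Slc25a39, which carries glutathione into mitochondria, was higher by 1.08 ± 0.17 (SE; limma adjusted p = 0.00424). Slc25a11, the mitochondrial oxoglutarate carrier, was lower by 1 probe (-0.47, limma adjusted p = 0.0175), and its other probes differed by -0.14 and -0.12 without passing.

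Among glutathione-using enzymes 6 of 27 tested genes were lower and 1 was higher, with a median of -0.08. Mgst1, a membrane-bound transferase (-0.88), Gstk1, the transferase of mitochondria and peroxisomes (-0.68), and Gstt1, a cytosolic transferase (-0.62), were lower, with limma adjusted p of 0.00376 to 0.00649. Gstp2 (-0.71) and Gstp1 (-0.40) were lower too, but they are near-identical copies and another Gstp1 probe differed by 0.24 without passing, so they are uncertain. Gsto1, an omega-class transferase, was higher (0.69, limma adjusted p = 0.00896).

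The list of NRF2 and its other targets also holds partner and related factors. In it 3 of 17 tested genes were higher and 0 lower, with a median of 0.08, and of those 3 Mafg and Nfe2l1 are such factors. Apart from Hmox1, no tested target passed, among them Nqo1 (0.08, limma adjusted p = 0.828) and Srxn1 (0.28, limma adjusted p = 0.182). Hmox1, the inducible heme oxygenase, was detected in 4 Taz knockdown hearts and 0 wild-type hearts (at least 1.29-fold). Mafg, a small Maf partner of NRF2, was higher by 0.46 (limma adjusted p = 0.0409). Nfe2l1, a related factor, was higher by 0.41 (limma adjusted p = 0.0420), and both lay close to the threshold. Nfe2l2, which encodes NRF2, differed by -0.20 (-0.57 to 0.17; limma adjusted p = 0.549). Its probe was detected in only 2 hearts of each group, with signals of 6.57 to 29.6, so a lack of change was not shown.

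Of the ATF4 arm, the transcription factors and targets of the amino acid and endoplasmic reticulum stress response, 14 of 20 tested genes were higher and 0 lower, with a median of 1.74. Atf4 was higher by 1.68 (limma adjusted p = 3.55e-05), Ddit3, which encodes CHOP, by 1.51 (limma adjusted p = 0.000245) and Atf5 by 3.18 (limma adjusted p = 6.79e-07). Slc7a5, the catalytic subunit of a plasma membrane amino acid exchanger, was higher by 3.66, and Trib3, a pseudokinase of the stress response detected in 1 of 4 wild-type hearts, by 2.66. The Asns probe with the smallest p was at least 8.01-fold higher, with detection in 0 wild-type hearts. Psat1, Sesn2 and Fgf21 were, like Trib3, detected in 4 Taz knockdown hearts and 1 wild-type heart, and Phgdh in 4 and 2. These genes too reached the detection filter through the Taz knockdown hearts, so their calls lend the count and the median no support either. Many of the list genes were known to change in these arrays when the lists were written, so these counts are not independent evidence of a direction.

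**Figure D4:**
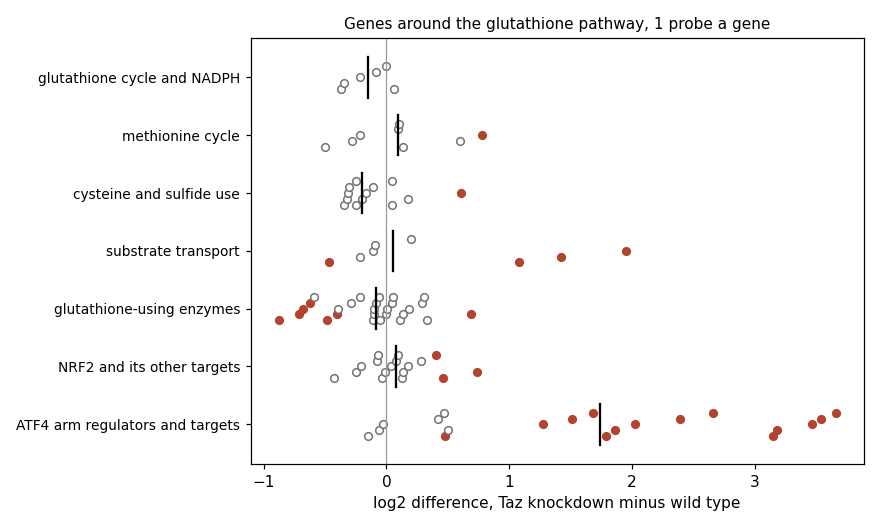
Log2 difference, Taz knockdown minus wild type, of each tested gene in 7 lists around the glutathione pathway, 1 probe a gene. Red filled points passed an adjusted p of 0.05 in limma, open points did not, and black bars are list medians, which run from -0.20 to 0.10 in 6 lists and reach 1.74 in the ATF4 arm.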

How the data were processed

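Heart RNA of 8 mice, each labelled as a separate animal, was hybridised to Illumina bead arrays after amplification and biotin labelling, per the labels' protocols. The deposited table gives a background-subtracted intensity per probe, non-normalized per the file headers, with a detection p-value beside it. A second deposited table of quantile-normalized intensity values served as an alternative. The labels state no scanner software, slide or background method, and 0 per-sample columns were left out. Intensities were corrected by normexp with an offset of 16, quantile-normalized and log2-transformed (neqc in limma 3.58.1, R 4.3.3), which draws folds of dim probes toward 1. Tests were two-sided (lmFit, eBayes). Probe names were updated by Entrez number for 23962 of 23978 probes with 1 gene. The fit was tested on simulated data. Groups share replicate numbers, and deviations of same-numbered hearts correlated at -0.093 to 0.165. Such correlations cannot exclude a pairing. The main fit left the numbers out, and a fit with the replicate number as a block was an alternative. Every probe of the 9 genes is named. Of each list, the genes that passed are named, up to 6 by smallest p, with the regulators Atf4, Ddit3 and Nfe2l2, and further list genes were chosen after their values were seen. Members and lists were chosen with earlier results of these data known. Alternatives changed scaling, offset, background correction, filter, variance prior and hearts.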

Additional observations from a re-analysis of the deposited data

How the results depend on the processing

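Chac1 kept its direction and its call under all 18 alternatives, with log2 differences of 2.99 to 3.59 (3.18 to 3.59 with a heart left out). The other calls sat close to the threshold. Gclm was 0.36 with 75th percentile scaling, 0.20 with an offset of 50, 0.39 without a filter, with a variance prior that follows intensity and with a replicate block, and 0.11 with undetected values raised, a step chosen after seeing the data, and none of these passed. It passed at 0.61 with the deposited table, at 0.60 without background correction and at 0.39 with probes averaged. The deposited table and the fit without background correction are not separate checks. It has no value with detection p under 0.01 on all 8 arrays. Ggct probe ILMN_2623886 was -0.47 with the deposited normalized table, with 75th percentile scaling and without background correction, and -0.48 without a filter and with a replicate block, and was not called in any of these. Hence the member count was 1 higher and 0 lower under 75th percentile scaling, without a filter and with the replicate block, 0 lower with the deposited table and without background correction, and 1 higher and 2 lower with the strict filter, where Ggct probe ILMN_2864906 passed at -0.48. Gss probe ILMN_2818895 passed at 0.36 with an offset of 50 and at 0.58 with the intensity prior and with raised values. Gss probe ILMN_2667909 turned to -0.058 with the deposited table, to -0.059 without background correction and to -0.0060 with 75th percentile scaling. Averaging probes gave 0.14 for Gss, which turned ILMN_1227649, and -0.54 for Ggct, which passed. Over all tested probes the lower count was 451 with an offset of 50, 471 with the intensity prior and 184 with the replicate block, against 297, and the other pathway genes had 13 higher with the strict filter. With a heart left out, counts over all probes were 197 to 264 higher and 188 to 261 lower, those of members 1 higher and 0 to 1 lower, and those of other pathway genes 19 to 22 higher and 4 to 6 lower. The counts moved most without Taz knockdown heart 2 (197 higher, 191 lower, 4 pathway genes lower), Taz knockdown heart 1 (191 lower), Taz knockdown heart 3 (188 lower), wild-type heart 3 (4 pathway genes lower) and wild-type heart 4 (189 lower). Ranges were 0.34 to 0.44 for Gclm, -0.55 to -0.39 for Ggct ILMN_2623886, -0.58 to -0.40 for Ggct ILMN_2864906, -0.12 to 0.14 for Gss ILMN_2667909 and -0.25 to 0.059 for Oplah. The causes of these shifts were not tested. Of 192 log2 differences under alternatives, 150 kept their sign and side of the threshold, 26 lost a call, 7 gained one and 9 turned sign. Of 108 counts, 73 stayed within 1.5 times the main count. Signal over background limits Gclm, Gss, Cth, Cbs and Gclc.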

Other observations

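Slc7a11, the cystine importer that supplies cysteine for glutathione, was not tested because its probe was detected on only 3 arrays, and it was picked after its values were seen. Its signals were 21.0, 22.4, 8.24 and 29.3 in Taz knockdown hearts, against -4.63, 3.84, -2.23 and -4.14 in wild-type hearts. The groups did not overlap, and all 3 detections fell in Taz knockdown hearts. Fitted without a detection filter, the log2 difference was 0.61 ± 0.15 (SE) with a limma adjusted p of 0.0760, and with each undetected value set to the dimmest detected signal of its array it was 0.12.

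The hearts did not keep 1 order across the glutathione probes. Among Taz knockdown hearts the normalized value was highest in heart 2 for Chac1, Gss ILMN_2818895, Oplah and Ggct ILMN_2864906, in heart 1 for Gclm and the other Gss probes, and in heart 4 for the remaining Ggct probes. No sample stood apart from its group by Dixon's ratio in the 22 groups of 4 hearts examined.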
